A study of Mus musculus with 12 samples.

Results

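The transcripts described here were lower than their own controls with Usp7 overexpression and also with Usp7 knockdown. RNA was sequenced from female germline stem cells (FGSCs), self-renewing germ cells cultured from mouse ovary, of the C57BL/6 strain. Usp7 encodes a deubiquitinase, an enzyme that removes ubiquitin from other proteins. There were 12 libraries in 4 groups of 3: Usp7 overexpression, the overexpression control, Usp7 knockdown, and the knockdown control. The sources used here do not give the constructs, the control vectors or the time after treatment. Nor do they say whether the 3 libraries of a group came from separate cultures, so the spread between them may be technical. The authors deposited 1 table per construct, and each holds only transcripts that had passed their own test, 648 for overexpression and 3156 for knockdown. Of the 448 RefSeq transcripts in both tables, 81 (18.1%) had all 3 treated libraries below all 3 control libraries in both. Leaving out 10 stress and hypoxia genes by name and 8 noncoding transcripts gave 63 members, which belong to 63 genes. The measured values chose these members, so their values are given as a description with no test. In the separate tables, 233 of 648 transcripts (36%) had all overexpression libraries below all controls, and 1665 of 3156 (52.8%) had all knockdown libraries below all controls. Of the other ids in both tables, 324 were higher with overexpression and lower with knockdown, 36 were higher in both and 7 were lower with overexpression and higher with knockdown.

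Many of the members belong to amino acid supply or to the sperm. The other shared transcripts were not grouped in this way, so no share can be set beside the members'. Sperm and flagellum genes were among those too, such as Dnah1, Cfap65, Odf4, Tekt3 and Ldhc. When amino acids are scarce or protein folding is disturbed, translation of the transcription factor ATF4 rises, and ATF4 with C/EBP partners binds composite DNA sites near genes for amino acid synthesis, import and tRNA charging. Sperm tail, acrosome and head genes are normally transcribed in the haploid male germ line. USP7 is best known for acting on the ubiquitin ligase MDM2 and its target p53, and on Polycomb proteins.

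Promoter sequences came from RefSeq for build GRCm38.p6, with 250 bases before and 50 bases after each start site, and 49 of the 63 members had one. They were searched on both strands for 4 motifs. The ATF4-C/EBP composite core, TGATGNAA, was found in 8 of the 49 (16.3%), against 1219 of 27025 genes in the whole table (4.51%). Of those 8, 5 were among the 9 amino acid members with a promoter, 2 among 13 sperm and microtubule members and 1 among 5 matrix and surface members. These windows of 40 bases, chosen after the values were seen, show the site in capitals on the strand that reads it:
Asns (chr6:7693209-7693248, minus strand): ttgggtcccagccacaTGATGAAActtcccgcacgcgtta
Slc1a4 (chr11:20332694-20332733, plus strand): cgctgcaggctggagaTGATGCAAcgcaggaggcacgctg
Jdp2 (chr12:85599367-85599406, plus strand): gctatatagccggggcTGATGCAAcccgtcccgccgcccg
Iars (chr13:49682121-49682160, minus strand): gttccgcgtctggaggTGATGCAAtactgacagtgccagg
Pck2 (chr14:55540147-55540186, minus strand): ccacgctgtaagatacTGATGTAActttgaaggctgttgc
Spz1 (chr13:92576244-92576283, minus strand): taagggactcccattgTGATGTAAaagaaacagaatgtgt
Spata31d1d (chr13:59731880-59731919, minus strand): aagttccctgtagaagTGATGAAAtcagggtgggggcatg
Pi16 (chr17:29318744-29318783, minus strand): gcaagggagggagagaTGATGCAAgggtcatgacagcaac
Positions are those of the first base of the site in the direction of the gene. Relative to the start site they were -23 in Asns, -4 in Slc1a4, -33 in Jdp2, 8 in Iars and -35 in Spz1. The site was farther from the start in Pck2 (-103), Pi16 (-122) and Spata31d1d (-151). The Slc1a4, Iars, Pck2 and Pi16 sites are read on the strand opposite to the gene. In the printed windows of these genes that base is therefore the last of the site. A match of letters is not evidence that a factor bound there.

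The other 3 motifs showed smaller differences in share. The cAMP response core, TGACGT, was in 8 of 49 member promoters (16.3%) against 8.37% of all genes. The E-box CACGTG was in 3 (6.12%) against 8.09%, and the AP-1 site TGANTCA in 3 (6.12%) against 8.97%. Ciart, a clock gene, held 3 E-boxes, and the other members with an E-box were Iars and Slc38a7. The promoters of the 3 strongest ranked members with a composite or cAMP response core are printed whole, with the sites in capitals:
Jdp2 (chr12:85599166-85599465, plus strand): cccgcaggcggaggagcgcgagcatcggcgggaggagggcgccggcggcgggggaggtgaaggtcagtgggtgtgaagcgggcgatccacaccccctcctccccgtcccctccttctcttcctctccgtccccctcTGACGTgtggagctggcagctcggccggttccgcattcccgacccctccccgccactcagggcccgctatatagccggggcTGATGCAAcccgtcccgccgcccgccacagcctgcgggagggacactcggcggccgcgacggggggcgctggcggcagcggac
Spz1 (chr13:92576183-92576482, minus strand): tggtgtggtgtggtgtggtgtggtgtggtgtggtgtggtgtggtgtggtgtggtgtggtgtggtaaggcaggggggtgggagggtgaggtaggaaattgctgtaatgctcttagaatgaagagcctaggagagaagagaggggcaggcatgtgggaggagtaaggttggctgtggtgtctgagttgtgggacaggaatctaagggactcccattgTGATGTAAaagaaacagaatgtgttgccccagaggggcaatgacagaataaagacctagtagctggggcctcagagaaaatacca
Znrf4 (chr17:56512434-56512733, minus strand): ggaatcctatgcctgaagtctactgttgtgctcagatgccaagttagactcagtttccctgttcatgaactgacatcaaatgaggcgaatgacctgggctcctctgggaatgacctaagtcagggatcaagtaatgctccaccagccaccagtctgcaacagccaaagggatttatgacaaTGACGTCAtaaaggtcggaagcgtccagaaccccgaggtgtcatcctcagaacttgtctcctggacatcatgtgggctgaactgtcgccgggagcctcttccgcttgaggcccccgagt
Jdp2 carried a cAMP response core at position -114 besides its composite core. In Znrf4 the cAMP response core occurs on both strands and the matches overlap as 1 palindrome of 8 bases. None of the 4 motifs contains another.

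Facts of all libraries bear on how the members can be read. Usp7 was not listed in either table, so it was not among the transcripts that passed the authors' test. Its level could not be used to check the labels. The germ cell markers Ddx4 and Dazl were not listed either, which does not tell whether they were expressed. Of 20 germline stem cell markers the overexpression table listed 3 (Mael, Stk31 and Tex101), and 5 were listed for knockdown. The tables were normalized separately, so levels set across them carry that limit. Over the 448 shared transcripts, an overexpression and a knockdown library differed by a median of 0.20 to 0.47 on the log2 scale across the 9 library pairs. This range is close to that between libraries of the overexpression group (0.30 to 0.44) and of the knockdown group (0.19 to 0.35). Control libraries of one table differed from those of the other by 2.94 to 3.29. Over the 63 members alone, overexpression and knockdown libraries differed by 0.44 to 0.59, and the controls of the tables by 0.70 to 0.88. Knockdown control replicate 2 stood apart, with 143 of 3156 transcripts (4.53%) more than 2 log2 units above both other controls, and 3 of the 63 members were among them. Exons of 16 members overlap those of another gene, most often on the other strand, and 4 have a near-identical sequence in another annotated gene (Gm1979, 5031410I06Rik, Sox4 and Ciart), so reads could be shared there.

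Levels in treated cells were alike for most members. Mean treated levels in the tables were within 1.5-fold of each other for 46 of 63 members (73.0%), and mean control levels for 21 (33.3%). For the other 385 shared transcripts these shares were 90.4% and 7.53%. The control level was higher in the knockdown table for 35 members and lower for 28, with a median log2 ratio of 0.14, whereas the other shared transcripts had a median control ratio of 3.35. Controls of the tables therefore differed far less for the members than for the rest, which follows in part from the rule, since opposite directions need unlike controls when treated levels are alike. Table, construct and control culture differ together, so their parts in these ratios cannot be told apart.

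**Figure D1:**
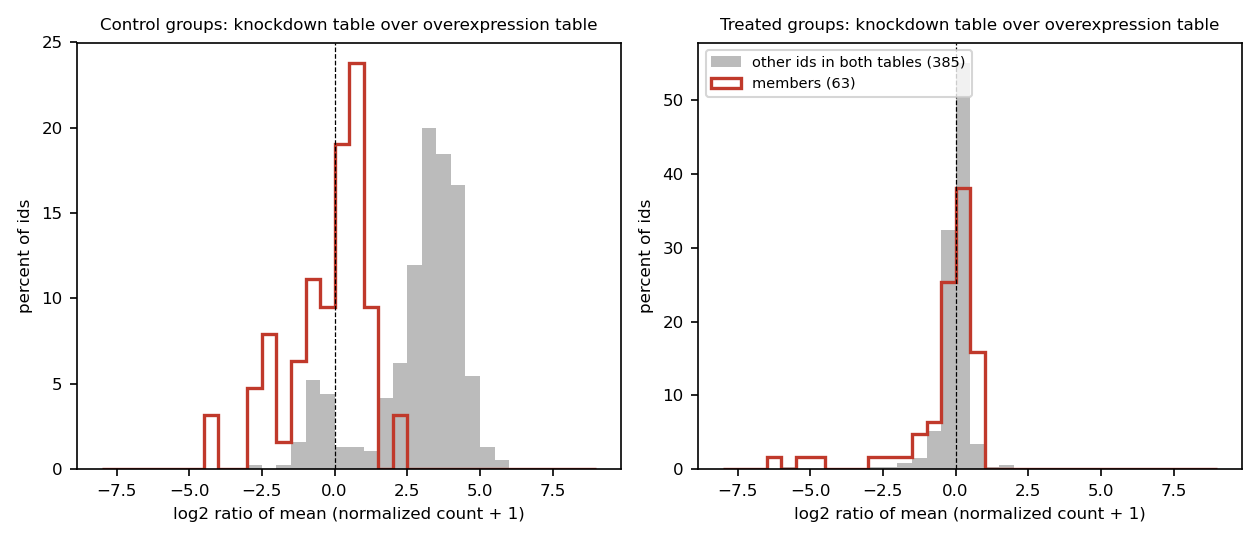
Histograms of the log2 ratio of the knockdown table's mean (normalized count + 1) to that of the overexpression table, for control groups at left and treated groups at right; bars are the 385 other shared transcripts and the outline the 63 members, as a percent of each set. The members' control ratios centre at 0.14 and the others' at 3.35, and the treated ratios at 0.07 and 0.04.

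All differences below are means of log2(normalized count + 1), treated minus control, with a standard error (SE) from limma over 3 treated and 3 control libraries; this scale understates the change of low transcripts. With overexpression the members' median difference was -1.34, from -3.78 to -0.64, and 49 of 63 were below -1. With knockdown it was -1.53 over all 63, from -3.86 to -0.61, and 57 were below -1. All 63 passed the filter on low values in the overexpression table and 58 in the knockdown table (not Spata31d1d, Gm1979, Zbtb8b, Cyp17a1 and Ebf4, whose differences carry no SE). Over the 58 the median was -1.49. Which comparison gives the larger difference depends on how each table is scaled. After median-of-ratios scaling the members' median was -2.53 with overexpression and, over the 58, -1.19 with knockdown. For reference, limma called all 613 tested transcripts (100%) with overexpression and 2898 of 2902 (99.9%) with knockdown in either direction, on tables the authors had already selected. It called 213 of 613 tested transcripts lower with overexpression (34.7%) and 1472 of 2902 with knockdown (50.7%). The medians over all tested transcripts were 1.31 and -0.61, and over those called lower -1.61 and -1.36. Among the calls 65.2% were higher with overexpression, or 43.4% after median-of-ratios scaling of the table. With knockdown 49.2% were higher, or 14.6% after scaling to column totals. Across the 63 members the differences of the comparisons had a Pearson correlation of 0.20 and a Spearman correlation of 0.34, as a description of points that share libraries. In bulk RNA, fewer cells that hold a transcript and less of it per cell cannot be told apart.

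**Figure D2:**
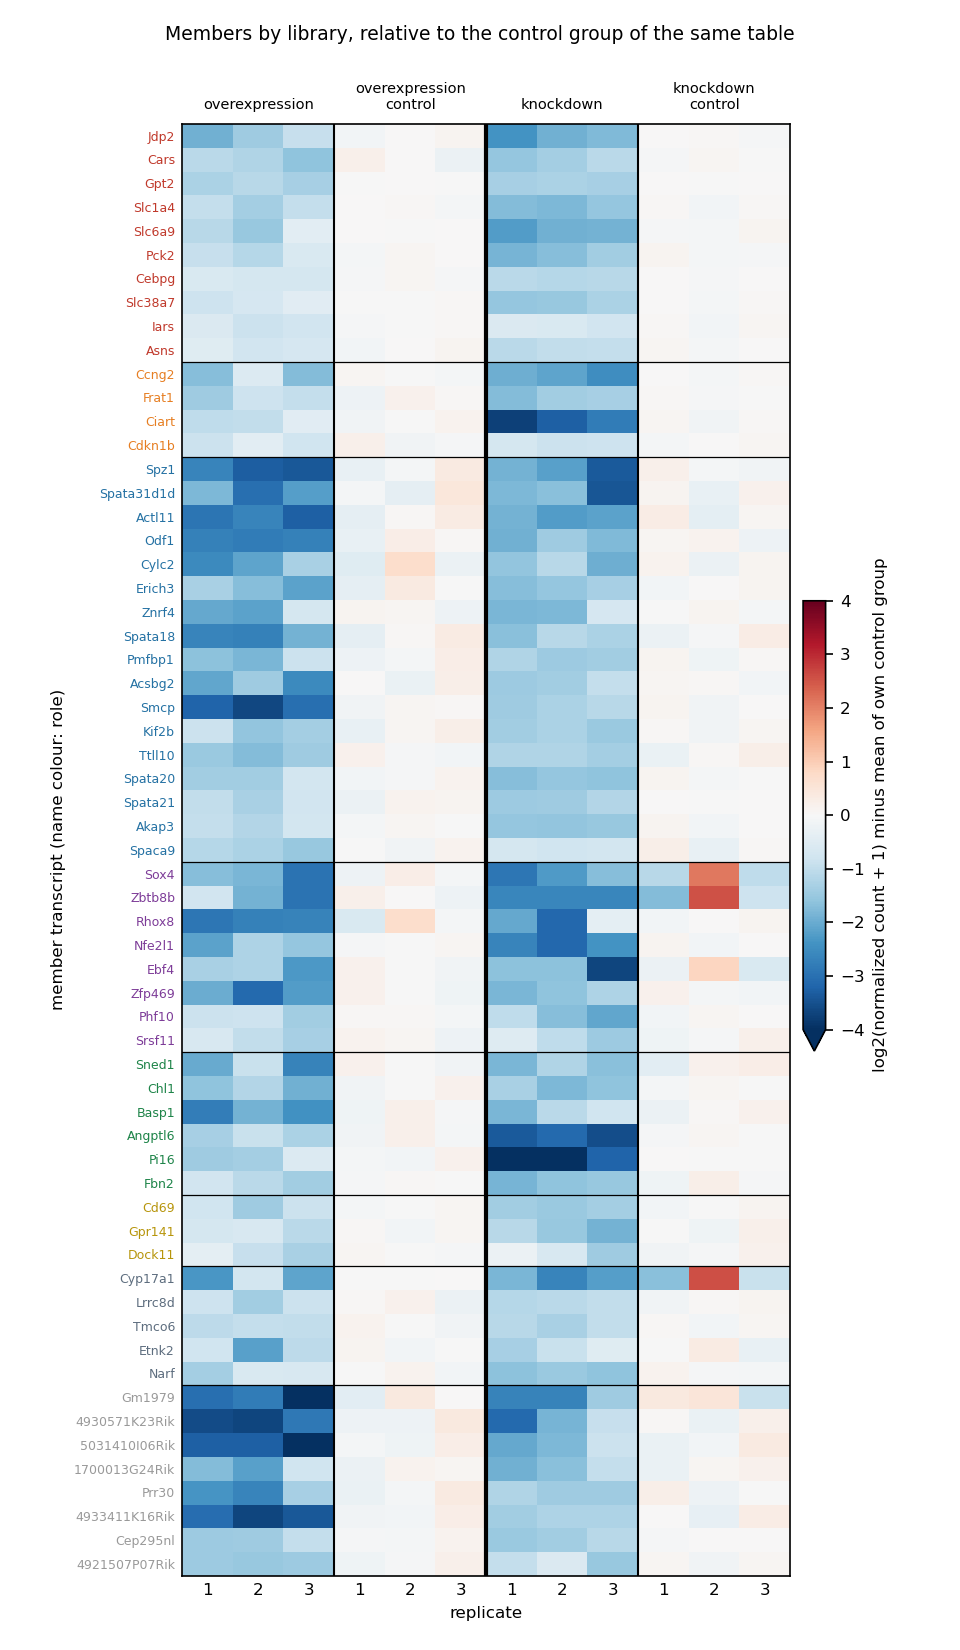
Heat map of 61 of the 63 members (rows, grouped and coloured by role) in the 12 libraries (columns, replicates 1 to 3 of each group), with colour for log2(normalized count + 1) minus the mean of the control group in the same table, and a palette that saturates at its lower end. Every treated library lies below the controls of its table, as the rule requires. Knockdown control replicate 2 is the red cell of Sox4, Zbtb8b and Cyp17a1.

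The 10 members of amino acid supply and its bZIP factors were lower by a median of -0.95 with overexpression and -1.39 with knockdown. On the deposited scaling the difference was larger with knockdown for 9 of the 10, and all 10 had a higher control level in the knockdown table. Asns makes asparagine from aspartate and glutamine. It had 834, 691 and 726 normalized counts with overexpression and 1070, 1174 and 1250 without, then 1205, 1290 and 1320 with knockdown and 2709, 2409 and 2561 without. Its treated libraries with knockdown lay at the level of the overexpression controls, so only the comparison within a table separates the groups. The differences were -0.64 ± 0.14 and -1.01 ± 0.09. Gpt2, the mitochondrial alanine aminotransferase, had 351, 395 and 341 normalized counts under overexpression, 850.1, 860 and 847 in its controls, 575, 599 and 569.5 under knockdown and 1463, 1407 and 1443 in the knockdown controls. The replicates were tight, and the differences were nearly the same in both tables, -1.24 ± 0.14 and -1.31 ± 0.08. Pck2, the mitochondrial form of phosphoenolpyruvate carboxykinase, had 1323, 1135 and 1651 normalized counts in the overexpression libraries against 2356, 2650 and 2503 in their controls, and 1158, 1298 and 1596 in the knockdown libraries against 4513, 4038 and 4115 in theirs. Treated libraries covered nearly the same range in both tables, while the controls were higher in the knockdown table, and the differences were -0.88 ± 0.16 and -1.66 ± 0.12.

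Carriers of amino acids formed the next group. Slc1a4 (ASCT1) exchanges small neutral amino acids. It had 523, 395 and 528 normalized counts with overexpression and 1038, 1056 and 979 without, then 669, 634 and 759 with knockdown and 2309, 2055 and 2284 without. The differences were -1.10 ± 0.15 and -1.69 ± 0.10. Slc6a9, the glycine transporter GlyT1, had 58.5, 43.7 and 93.7 normalized counts under overexpression, 127, 124 and 129 in its controls, 53.01, 65.5 and 67.9 under knockdown and 246, 238 and 273 in the knockdown controls. Overexpression replicate 3 was the highest of its group, and the difference was -1.01 ± 0.26 there and -2.01 ± 0.14 with knockdown. Exons of Slc6a9 overlap those of B4galt2 and Ccdc24 on the other strand, and the sources used here do not say whether reads were counted by strand. Slc38a7 (SNAT7), which exports glutamine from lysosomes, was lower by -0.66 ± 0.15 and -1.45 ± 0.11.

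The tRNA synthetases and transcription factors followed. Iars charges tRNA with isoleucine and was the member with the highest overexpression control level per kilobase, 755 normalized counts. It had 2253, 1858 and 1954 normalized counts in the overexpression libraries against 3219, 3327 and 3477 in their controls, and 3401, 3299 and 2935 in the knockdown libraries against 5188, 4630 and 5325 in theirs. Its difference was among the smallest, -0.73 ± 0.14 with overexpression and -0.65 ± 0.10 with knockdown. Cars, which charges tRNA with cysteine, was a low transcript with 18.2, 16.4 and 12.2 normalized counts with overexpression and 45.3, 39.9 and 33.3 without, then 17.7, 20.3 and 24.9 with knockdown and 52.3, 56.3 and 52.7 without. It was lower by -1.29 ± 0.29 and -1.33 ± 0.19. Cebpg, a bZIP partner of ATF4, was lower by -0.67 ± 0.13 and -1.11 ± 0.08. Jdp2, a bZIP repressor of AP-1 at chr12:85598656-85639878, had 21.5, 30.6 and 43.5 normalized counts under overexpression, 76.5, 84.2 and 89.7 in its controls, 30.1, 42.1 and 47.1 under knockdown and 164, 169 and 157 in the knockdown controls. It ranked first in this group by the smaller of its differences, -1.42 ± 0.27 and -2.03 ± 0.18.

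Listed ATF4 targets and amino acid response genes were called lower in each table. Of a list of 42 ATF4 targets and amino acid response genes, the overexpression table held 12 and limma called all 12 lower, with a median of -1.33. Of these, 6 are members. The other 6 (Atf3, Chac1, Ddit4, Sesn2, Slc7a11 and Trib3) met the same rule and were left out by name, so the 12 add no gene beyond the rule. The rest of the list was not in the overexpression table, so its direction there is not known. The knockdown table held 19 and all 19 were called lower, with a median of -1.63. Those not in the overexpression table included Ddit3, which encodes the stress factor CHOP (-2.88 ± 0.27), Ppp1r15a, a phosphatase subunit that restores translation (-1.63 ± 0.17), and Pycr1 of proline synthesis (-0.62 ± 0.15). Of 20 cytosolic tRNA synthetases, Cars and Iars were listed and lower in both tables, and the knockdown table added Aars, Sars and Tars, all called lower, with differences from -2.04 (Sars) to -0.63 (Tars). Of 23 endoplasmic reticulum folding genes, none a member, 3 were listed and called higher with overexpression and 5 listed and called lower with knockdown. These counts rest on the same contrasts as the rule, against the shares of 34.7% and 50.7% given above.

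**Figure D3:**
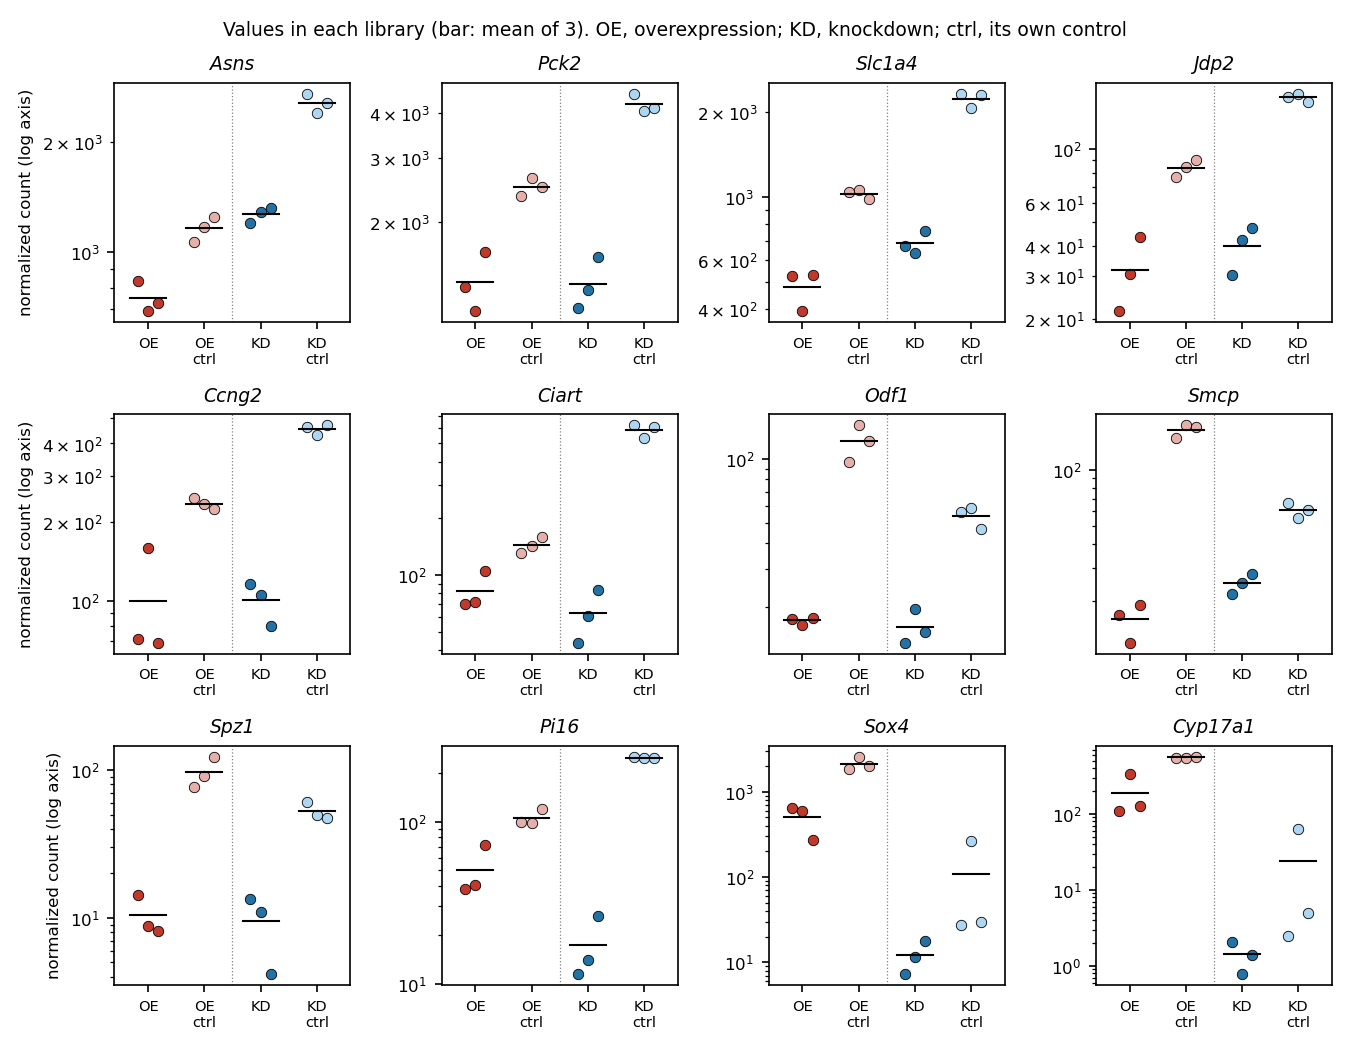
Normalized counts on a log axis in each of the 12 libraries for 12 members (points, 3 per group; bars, group means); the levels were scaled separately for overexpression (OE) and knockdown (KD), left and right of the dotted line. In every panel the treated points lie below their controls, as the rule requires. Sox4 and Cyp17a1 differ in level between tables, and 1 knockdown control point stands far above the other 2.

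Regulators of the cell cycle, the clock and Wnt signalling made up 4 members, with medians of -0.94 and -1.83. On the deposited scaling all 4 were lower by more with knockdown. Ccng2 encodes cyclin G2, an atypical cyclin linked to cell cycle exit, at chr5:93267573-93276231. It had 71.6, 159.6 and 69.2 normalized counts in the overexpression libraries against 248, 235 and 224 in their controls, and 116, 105 and 80.4 in the knockdown libraries against 464, 431 and 469 in theirs. Overexpression replicate 2 was above the other libraries of its group. The mean treated level per kilobase was 35.6 in the overexpression table and 35.8 in the knockdown table. The differences were -1.34 ± 0.28 and -2.18 ± 0.15. Ciart, a repressor of the circadian clock, at chr3:95878500-95882257, had 70.3, 72.1 and 105 normalized counts with overexpression and 131, 142 and 158 without, then 43.7, 60.8 and 83.1 with knockdown and 623, 537 and 608 without. Treated libraries of the tables overlapped, and the log2 ratio of the knockdown table's controls to those of the overexpression table was 2.03, so the difference was -0.82 ± 0.20 with overexpression and -3.26 ± 0.21 with knockdown. Frat1, which binds GSK3 and promotes Wnt signalling, had 32.5, 50.3 and 46.2 normalized counts under overexpression, 77.5, 101 and 92.5 in its controls, 38.5, 49.1 and 51.3 under knockdown and 135, 126 and 129.8 in the knockdown controls. Its differences were -1.07 ± 0.24 and -1.48 ± 0.15.

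Cdkn1b, the cyclin-dependent kinase inhibitor p27, had 186, 249.2 and 196 normalized counts in the overexpression libraries against 385, 305 and 326 in their controls, and 292, 260.3 and 267 in the knockdown libraries against 448, 474 and 499.7 in theirs. Its differences, -0.69 ± 0.17 and -0.79 ± 0.10, were small and of like size in both tables. On a list of 39 cell cycle and replication genes it was the only one called lower in either table: limma called Ccnd1 and Ccne1 higher with overexpression (0.74 ± 0.18 and 0.70 ± 0.17) and 18 of 19 listed genes higher with knockdown. On a list of 25 FoxO and growth factor withdrawal targets the overexpression table held Ccng2 and Cdkn1b alone. With knockdown 13 tested transcripts were called lower and 1, Ccnd2, higher. Those lower included Tcp11l2 (-3.46 ± 0.19), Btg1 (-2.45 ± 0.17) and Pik3ip1 (-2.10 ± 0.14). Of 17 clock genes the overexpression table held Ciart and Cry1, which was higher (1.55 ± 0.30). With knockdown 6 of 7 were lower, Cry1 among them (-1.62 ± 0.22).

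Sperm and microtubule genes were the largest group, with 18 members and medians of -1.68 and -1.48. On the deposited scaling the difference was larger with overexpression in 13 of the 18, and 17 had treated levels within 1.5-fold between tables. Spz1, a testis transcription factor with a bHLH-zip domain, at chr13:92574631-92576232, ranked first of all members. It had 14.3, 8.74 and 8.15 normalized counts with overexpression and 77.5, 90.9 and 123 without, then 13.5, 10.9 and 4.16 with knockdown and 60.5, 49.4 and 47.8 without. No treated library was above 14.3 and no control below 47.8, with differences of -3.12 ± 0.30 and -2.47 ± 0.38. Odf1, a protein of the outer dense fibres of the sperm tail at chr15:38219203-38226735, had 17.6, 16.4 and 17.7 normalized counts under overexpression, 96.6, 144 and 122 in its controls, 13.5, 19.5 and 15.2 under knockdown and 56.4, 58.9 and 46.5 in the knockdown controls. The 6 treated libraries lay in a narrow band, and the differences were -2.73 ± 0.24 and -1.69 ± 0.22. Smcp, a protein of the sperm mitochondrial capsule, had 16.9, 12.02 and 19.01 normalized counts in the overexpression libraries against 147, 172 and 169 in their controls, and 21.8, 24.9 and 27.7 in the knockdown libraries against 66.2, 55.4 and 61.2 in theirs. Its difference was much larger with overexpression, -3.29 ± 0.24, than with knockdown, -1.27 ± 0.18.

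Akap3, Pmfbp1, Spata18, Spata20 and Spata21 had smaller differences than these with overexpression. Akap3 anchors protein kinase A to the fibrous sheath of the tail. It had 38.4, 32.8 and 44.8 normalized counts with overexpression and 71.4, 78.7 and 74.0 without, then 43.7, 42.1 and 44.3 with knockdown and 137, 119 and 129.8 without. Treated libraries again lay close together in both tables, with differences of -0.94 ± 0.22 and -1.54 ± 0.14. Pmfbp1, which couples the sperm head to the tail, had 27.3, 24.04 and 47.5 normalized counts under overexpression, 76.5, 83.1 and 106 in its controls, 38.5, 31.95 and 33.3 under knockdown and 96.4, 79.7 and 91.9 in the knockdown controls. Its differences were -1.45 ± 0.28 and -1.35 ± 0.16. Spata18 takes part in mitochondrial quality control. It had 9.11, 8.74 and 16.3 normalized counts in the overexpression libraries against 48.3, 64.3 and 78.6 in their controls, and 10.4, 15.6 and 13.9 in the knockdown libraries against 29.4, 33.8 and 42.9 in theirs. Overexpression gave the larger difference, -2.41 ± 0.33 against -1.35 ± 0.25. Spata20, a thioredoxin-like protein of spermatids, had 50.1, 49.2 and 78.8 normalized counts with overexpression and 123, 127 and 147 without, then 63.4, 70.1 and 67.9 with knockdown and 223, 197 and 206 without. Its differences were -1.18 ± 0.22 and -1.62 ± 0.12. Spata21, an EF-hand protein, had 82.6, 66.7 and 96.4 normalized counts under overexpression, 141, 179.5 and 176 in its controls, 68.6, 70.1 and 84.5 under knockdown and 191, 188 and 191 in the knockdown controls. Its treated libraries lay in overlapping ranges, with differences of -1.01 ± 0.20 and -1.35 ± 0.13.

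Enzymes and motors in the same group included Znrf4, a RING ubiquitin ligase of the testis at chr17:56511248-56512483, with 18.9, 17.5 and 48.9 normalized counts in the overexpression libraries against 87.5, 86.4 and 70.3 in their controls, and 14.6, 14.8 and 33.3 in the knockdown libraries against 53.1, 58.0 and 51.4 in theirs. Replicate 3 was the highest treated library in both tables, and the differences were -1.64 ± 0.36 and -1.44 ± 0.31. Kif2b is a kinesin that depolymerizes microtubules. It had 31.2, 18.6 and 21.7 normalized counts with overexpression and 46.3, 59.8 and 66.6 without, then 27.0, 29.6 and 24.9 with knockdown and 74.3, 65.8 and 75.9 without. The differences were alike, -1.25 ± 0.28 and -1.37 ± 0.17. Further members of the group were Actl11, Cylc2, Spata31d1d, Acsbg2, Erich3, Ttll10 and Spaca9. Actl11, an actin-like protein, had the largest overexpression difference of these, -2.94 ± 0.31, and Spaca9, found in the acrosome and in ciliary microtubules, the smallest, -1.31 ± 0.23; with knockdown Spaca9 was again the smallest, -0.74 ± 0.19.

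Sperm genes outside the members went in different directions with overexpression. Of a list of 31 spermatid and flagellum genes the overexpression table held 18, of which limma called 10 lower and 8 higher. Those lower included the protamines and transition proteins Prm1, Prm2, Tnp1 and Tnp2, none of which the knockdown table listed. Those higher included Dnah8 (2.15 ± 0.17) and Ldhc (1.87 ± 0.15). The knockdown table held 16 and all were called lower, with a median of -1.40, Dnah8 (-1.49 ± 0.10) and Ldhc (-1.18 ± 0.10) among them. Odf1, Smcp, Spata18 and Akap3 are the members on this list, and the counts of genes called lower in both tables include these 4, as the rule requires.

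**Figure D4:**
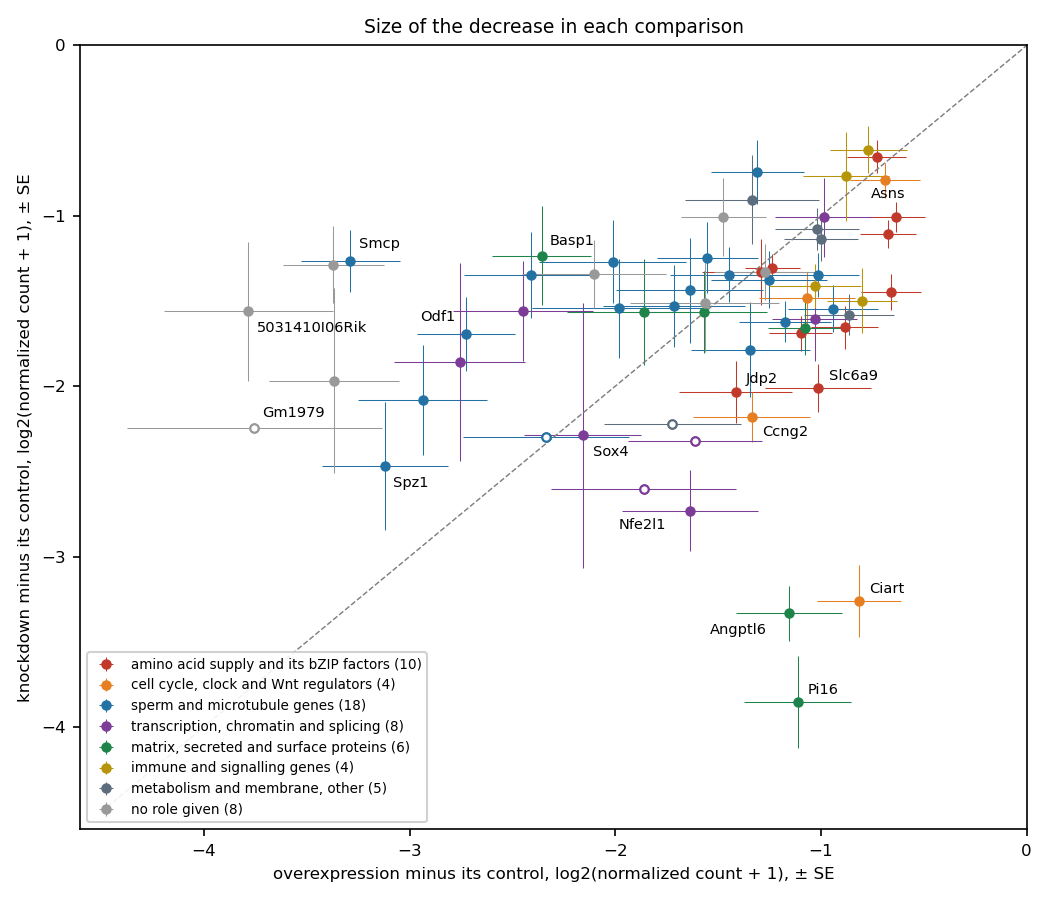
Difference with overexpression (x axis) against difference with knockdown (y axis) for the 63 members, each as log2(normalized count + 1) treated minus control with SE bars, coloured by role; open points had no SE for knockdown, and the dashed line marks equal differences. Amino acid members lie mostly below the line (9 of 10) and sperm and microtubule members mostly above it (13 of 18). Pi16, Angptl6 and Ciart are far below it. Places relative to the line depend on the scaling of each table.

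Transcription, chromatin and splicing factors made up 8 members, with medians of -1.75 and -2.07. The knockdown median rests in part on knockdown control replicate 2. Without that library the knockdown differences of Sox4, Zbtb8b and Ebf4 were -1.23, -1.32 and -1.89. Sox4, an HMG-box factor of progenitor cells, at chr13:28948919-28953699, had 643, 597 and 274 normalized counts under overexpression, 1835, 2564 and 2001 in its controls, 7.28, 11.7 and 18.01 under knockdown and 27.8, 265 and 29.4 in the knockdown controls. The control level per kilobase was 445 in the overexpression table and 22.4 in the knockdown table, and knockdown control replicate 2 was 9.27 times the mean of the other 2. The differences were -2.16 ± 0.28 and -2.29 ± 0.78, and without knockdown control replicate 2 the second was -1.23. The noncoding gene Gm26735 covers the same sequence on the other strand, so without strand the pair cannot be told apart. Phf10, a subunit of the PBAF chromatin remodelling complex, had 69.0, 69.9 and 47.5 normalized counts in the overexpression libraries against 129.8, 129.7 and 119 in their controls, and 96.7, 59.2 and 45.7 in the knockdown libraries against 185, 208 and 199.6 in theirs. Its exons overlap those of a gene on the other strand, 1600012H06Rik, and its differences were -1.03 ± 0.21 and -1.61 ± 0.24. Nfe2l1, a bZIP factor that drives proteasome genes, was measured as 1 isoform with 5.85, 12.02 and 9.50 normalized counts with overexpression and 28.2, 28.8 and 31.5 without, then 11.4, 7.79 and 13.9 with knockdown and 82.5, 71.9 and 77.2 without. Its differences were -1.64 ± 0.33 with overexpression and -2.73 ± 0.24 with knockdown.

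Zbtb8b, a zinc finger protein, was listed at 0 in all 3 knockdown libraries, and its controls there held 0.817, 34.6 and 2.45 normalized counts. Against a floor of 3 reads over the group it was at least 11.8-fold lower, a bound that rests on control replicate 2. Its overexpression difference was -1.86 ± 0.45. Ebf4, Zfp469, Rhox8 and Srsf11 were lower by -1.61 ± 0.33, -2.45 ± 0.34, -2.76 ± 0.32 and -0.99 ± 0.23 with overexpression. With knockdown their differences were -2.32, -1.56 ± 0.29, -1.86 ± 0.58 and -1.01 ± 0.23. Srsf11 is a splicing factor, Rhox8 an X-linked homeobox gene known from Sertoli cells, and Ebf4 a member of the early B cell factor family.

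Matrix, secreted and surface proteins made up 6 members, with medians of -1.36 and -1.61. Pi16, a peptidase inhibitor that marks a class of fibroblasts, at chr17:29318796-29328903, had 38.4, 40.4 and 72.0 normalized counts under overexpression, 99.6, 98.6 and 119 in its controls, 11.4, 14.0 and 26.3 under knockdown and 252, 247 and 246 in the knockdown controls. Its knockdown controls were nearly identical to each other, and its knockdown difference was -3.86 ± 0.27, the lowest of all members on this scale, against -1.11 ± 0.26 with overexpression. By the ratio of group means, Cyp17a1 (16.8-fold lower) was below Pi16 (14.4-fold lower), and Zbtb8b was at 0 with knockdown. The Cyp17a1 ratio rests on knockdown control replicate 2, with 64.1 normalized counts against 2.45 and 4.90 in the other controls. Of 14 fibroblast and feeder cell markers the overexpression table listed Pi16 and S100a4. The sum of those listed was 1656 to 1887 in overexpression libraries and 1061 to 1295 in their controls. In the knockdown table the sum of 5 (Col1a1, Col1a2, Pi16, S100a4 and Vim) was 8218 to 9874 in knockdown libraries and 6004 to 7246 in controls. These sums are dominated by the abundant members: with knockdown Vim and S100a4 were called higher, while Pi16, Col1a1 (-2.40) and Col1a2 (-2.44) were called lower. Knockdown control replicate 2 held 735 and 817 normalized counts of Col1a1 and Col1a2, and the other controls 158 to 185. The part of other cells in the difference of Pi16 was not tested.

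Angptl6, a secreted angiopoietin-like protein, had 20.8, 28.4 and 21.7 normalized counts in the overexpression libraries against 48.3, 62.1 and 50.9 in their controls, and 20.8, 24.9 and 18.01 in the knockdown libraries against 214, 233 and 218 in theirs. Its treated libraries overlapped between tables and its knockdown controls were far above the rest, which gave -1.16 ± 0.26 with overexpression and -3.33 ± 0.16 with knockdown. Its exons overlap those of A230050P20Rik on the other strand. Fbn2 encodes fibrillin 2 of elastic microfibrils. It had 170.4, 139 and 110 normalized counts with overexpression and 285, 298 and 291 without, then 54.1, 63.9 and 69.3 with knockdown and 177, 231 and 191 without. Both groups of the knockdown table were lower than their counterparts, and the differences were -1.08 ± 0.18 and -1.66 ± 0.16. Basp1, a membrane protein of nerve growth cones, had 28.0, 51.4 and 35.3 normalized counts under overexpression, 173, 224 and 189 in its controls, 10.4, 17.9 and 22.2 under knockdown and 33.5, 40.7 and 44.1 in the knockdown controls. The log2 ratio of its control levels, knockdown table over overexpression table, was -2.28, and its differences were -2.36 ± 0.24 and -1.23 ± 0.29. Of 36 axon and neuronal genes the overexpression table also listed Nes (-2.03 ± 0.21) and Dpysl4 (-2.63 ± 0.22), both lower. The knockdown table listed neither, and 5 of the 6 genes tested there were lower, Basp1 among them. Control replicate 2 was high for some of these. In the knockdown controls Marcksl1 had 39.2, 276 and 52.7 normalized counts, Plxna1 44.1, 119 and 53.9, and Map1b 97.2, 332 and 115. Chl1, a neural adhesion protein, differed by -1.57 ± 0.31 and -1.56 ± 0.24, and Sned1, a matrix glycoprotein, by -1.86 ± 0.37 and -1.57 ± 0.31.

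Immune and signalling genes were 4 members with small differences, at medians of -0.84 and -1.09. Cd69, a lectin of activated lymphocytes, had 58.5, 37.2 and 55.7 normalized counts in the overexpression libraries against 97.6, 101 and 108 in their controls, and 58.2, 55.3 and 59.6 in the knockdown libraries against 143, 155 and 169 in theirs. Treated libraries of the tables overlapped, and the differences were -1.03 ± 0.22 and -1.41 ± 0.13. Gpr141, an orphan receptor, was lower by -0.80 ± 0.17 and -1.50 ± 0.19. Dock11, an exchange factor for Cdc42, lay nearest to the limit of the rule. Its lowest knockdown control was 1.07 times its highest knockdown library, followed by Etnk2 at 1.13 and Cyp17a1 at 1.18. No shared transcript overlapped in either table, so the nearest outside the rule, Notch3, Ift140 and Eln, were higher in 1 comparison, with ratios of 0.555, 0.551 and 0.483.

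Metabolic and other membrane genes were 5 members, with medians of -1.02 and -1.14. Cyp17a1, the steroid hydroxylase of androgen synthesis, had 109, 331 and 128 normalized counts with overexpression and 548, 543 and 561 without, then 2.08, 0.779 and 1.39 with knockdown and 2.45, 64.1 and 4.90 without. In the knockdown table it was at 4.90 normalized counts or lower in every library but control replicate 2, and the difference went from -2.22 to -0.94 without that library; with overexpression it was -1.72 ± 0.33. It was the only one of 7 theca cell markers that the overexpression table listed. In the knockdown table Cyp11a1 and Insl3 were listed too and called higher, and the list's sum was 394 to 477 in knockdown libraries and 241 to 305 in controls. Granulosa cell markers were not listed in either table.

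Lrrc8d, a subunit of volume-regulated anion channels, had 101, 68.9 and 99.1 normalized counts under overexpression, 188, 203 and 154 in its controls, 95.6, 99.7 and 107 under knockdown and 193, 221 and 229 in the knockdown controls. The differences were -1.02 ± 0.20 and -1.08 ± 0.12. Tmco6, a membrane protein, had 65.7, 71.0 and 69.2 normalized counts in the overexpression libraries against 154, 137 and 125 in their controls, and 105, 92.0 and 114 in the knockdown libraries against 234, 210.4 and 240 in theirs. It was lower by -0.9998 ± 0.18 and -1.14 ± 0.13, and its exons overlap those of Ndufa2 on the other strand. Etnk2, an ethanolamine kinase, and Narf, which binds prelamin A, were lower by -1.34 ± 0.33 and -0.86 ± 0.22 with overexpression and by -0.90 ± 0.26 and -1.58 ± 0.12 with knockdown.

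The 8 members with no role given had the largest overexpression median, -2.74, and -1.43 with knockdown. Gm1979 and 5031410I06Rik had the lowest overexpression differences of all, -3.76 ± 0.62 and -3.78 ± 0.41, and -2.24 and -1.56 with knockdown. Each has 10 genes of near-identical sequence, the other among them, and they lie 92228 bases apart on chromosome 5, so their counts are uncertain and not independent. Cep295nl had 23.4, 24.04 and 33.9 normalized counts with overexpression and 63.4, 62.1 and 73.1 without, then 28.1, 29.6 and 36.0 with knockdown and 77.6, 80.5 and 80.8 without. Its differences were -1.27 ± 0.25 and -1.33 ± 0.16. The clone 4921507P07Rik had 35.8, 33.9 and 35.3 normalized counts under overexpression, 88.5, 95.3 and 115 in its controls, 56.1, 72.5 and 37.4 under knockdown and 114, 98.7 and 114 in the knockdown controls. It was lower by -1.47 ± 0.21 and -1.01 ± 0.23. The other 4, 4930571K23Rik, 4933411K16Rik, Prr30 and 1700013G24Rik, ranged from -3.37 ± 0.25 to -1.57 ± 0.36 with overexpression; exons of 4933411K16Rik overlap those of Hoga1 on the same strand.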

How the data were processed

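RNA of FGSCs was sequenced from Illumina TruSeq libraries, per the labels. Per the submitters' processing notes, Bowtie 0.12.2 was used, with builds mm10 and GRCm38. The sources used here give neither the counter nor its use of strand. Values per library are normalized counts, a signal the authors made from reads divided by a size factor; all values were whole multiples of 1 step per column (100%, within 0.01 reads). The deposited tables also give the authors' log2 fold changes, test statistics (a score), p-values and adjusted p-values. The tables hold part of each library, so total depth is unknown. The listed normalized counts summed to 128056 to 155114 per library in the overexpression table. In the knockdown table they summed to 5.38e+06 to 5.52e+06 in knockdown libraries and 3.01e+06 to 3.22e+06 in controls. Replicates with recovered reads differed by a chi-square of 1.93 to 34.5 per transcript, so none was counted as a repeat.

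The unit called for limma (3.58.1, R 4.3.3) per table, run on log2(normalized count + 1) with a trended variance, with Benjamini-Hochberg adjusted p under 0.05, in place of a count test. The filter asked for 10 or more in 3 libraries and for 15 or more in total. The fit was tested on simulated data. edgeR 4.0.16 and DESeq2 1.42.0 were run as alternatives on recovered reads of the knockdown table. Other alternatives changed the scaling, pseudocount, filter, rule and replicates. The p-values of these fits measure only the spread between libraries, and the tables were selected by the authors' test on the same libraries.

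The members and the 29 gene lists were chosen with earlier results of these data known, and the 8 roles were assigned after the values were seen. Library values are given for the 24 members with the largest of their smaller absolute differences, among those averaging at least 50 in the controls of both tables, and for up to 4 members per list; others with library values or sequences (Asns, Pck2, Nfe2l1, Zbtb8b and the windows besides those of Jdp2 and Spz1) were chosen after their values were seen. Promoters were printed for those of the first 8 in this ranking with a searched motif. Coordinates and overlaps are from GRCm38; 62 members matched by accession and 1, Srsf11, by symbol, and 58 had a transcript length. Near-identical copies were sought with blastn 2.17.0+ (at least 95% identity over at least 50% of the length). Results of 2 members are not reported here by name.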

Additional observations from a re-analysis of the deposited data

How the results depend on the processing

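The number of members stayed between 57 and 63 under the changes of rule and scaling tried. Median-of-ratios scaling kept 59 of the 63 and lost Dock11, Etnk2, Iars and 4921507P07Rik. Leaving out a library can only relax the rule, so it says nothing of the count. The members' median log2 difference with overexpression moved from -1.34 to -2.53 with median-of-ratios scaling, -2.08 with TMM, -1.41 with column totals, -1.24 with a pseudocount of 5 and -1.21 with a filter of 50. Leaving out 1 library gave -1.39 to -1.24. With knockdown it moved from -1.49 to -1.19 with median-of-ratios scaling, -2.28 with column totals and -1.27 with a pseudocount of 5. The median over all tested transcripts went from 1.31 to -0.03 (median of ratios), 0.46 (TMM) and 1.23 (column totals) for overexpression and from -0.61 to -0.30 (median of ratios) and -1.45 (column totals) for knockdown, and every tested member stayed below 0 in each. The transcripts called moved from 613 to 379 with a filter of 50 for overexpression, where fewer were tested, and from 2898 to 1811 with column totals for knockdown. edgeR and DESeq2 each called 2902 with knockdown. Of 966 recomputed differences of 32 members, 116 moved by more than the replicate spread and 0 reversed. The cause of the moves was not tested. All treated libraries of a member lie below its controls by the rule. Only a change of scaling could therefore reverse a sign, so the 0 says little about the other settings. Without knockdown control replicate 2, Sox4 went from -2.29 to -1.23, Zbtb8b from -2.60 to -1.32 and Cyp17a1 from -2.22 to -0.94.

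Same-numbered treated and control libraries did not deviate together (correlations -0.11 to 0.05 for overexpression and -0.10 to -0.02 for knockdown), so the numbers were not taken to pair them. A replicate block left 613 and 2898 calls and medians of -1.34 and -1.49. No scaling, edgeR and DESeq2 were not run for overexpression. There 2 columns were not taken as recovered reads, although their values too were whole multiples of a step. Depth is unknown, and members of few reads, such as Spata31d1d and Gm1979, are the least precise.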

Other observations

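Of the 63 members, 3 pairs lie within 500 kb of each other: Gm1979 and 5031410I06Rik on chromosome 5, Znrf4 and Acsbg2 on chromosome 17 (330620 bases apart), and Frat1 and 4933411K16Rik on chromosome 19 (219645 bases apart). Chromosomes 4, 6 and 11 held 6 members each. A second transcript of Lrrc8d was listed in the knockdown table alone, with 14.6, 14.8 and 4.16 normalized counts in knockdown libraries and 35.1, 39.8 and 45.3 in controls. It was lower there, as the member transcript was.

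Of 29 p53 targets, 3 were listed and called lower with overexpression (Ddit4, Pmaip1 and Sesn2), beside 34.7% lower among all tested. With knockdown 7 of 8 were lower and 1 was higher, beside 50.7% lower among all tested. Ddit4 and Sesn2 were lower in both comparisons and are no members because the rule leaves them out by name. Of 36 genes of Polycomb complexes, Usp7 partners and chromatin, none was listed with overexpression and 6 with knockdown, 4 lower and 2 higher. The smooth muscle markers Acta2, Myl9 and Tagln summed to 178 to 213 normalized counts in knockdown libraries and 361 to 1296 in their controls. The endothelial markers Cdh5, Cldn5 and Kdr summed to 5.20 to 11.1 and 27.0 to 102. Their part in the differences of Sox4, Zbtb8b and Cyp17a1 was not tested.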
